A study of Anthurium andraeanum with 18 samples.

Results

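In leaf libraries of Anthurium andraeanum, 29 assembled genes with a named protein hit differed in direction between 2 cultivars. Their means after the days at 4 °C lay on opposite sides of the 25 °C means. The best hit was a plant protein for 24 and a mouse protein for 5. All 29 were chosen from the deposited abundances, in TPM, a unit that scales reads to transcript length and library size. For each gene the mean of the 3 libraries of a group was taken, 0.5 TPM was added, and the ratio of 4 °C to 25 °C was formed in each cultivar. A member had a ratio of at least 3 in one cultivar and at most 0.333 in the other, a mean of 5 TPM or more in at least 1 of those 4 groups, and a Swiss-Prot description. Of 132108 transcript groups, 19112 had such a description, 13127 of these also reached 5 TPM, and 29 were members. In 14 of them the 4 °C level was above 25 °C in Oregon and below it in Fantasy love, called the Oregon-high genes here. The other 15 showed the reverse and are called the Fantasy love-high genes. These names state the direction from a cultivar's own 25 °C level to 4 °C, not which cultivar held more of the transcript. These ratios chose the members, so the values at 4 °C and 25 °C are given as a description, with no test.

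RNA was sequenced from leaves of full-flowering plants of the cultivars Oregon and Fantasy love. Control plants stayed at 25 °C, while the cold plants spent 3 days at 15 °C, 3 days at 6 °C and 3 days at 4 °C, all with days of 12 h light. Samples came from 25 °C, 6 °C and 4 °C leaves, with 3 libraries in each of the 6 groups. The controls carry the time label 0 days although the Oregon titles give 3 days, which leaves the relative age of control and cold leaves unclear. Libraries are called biological replicates, but no label ties each to its own plant, and p-values therefore cover only the spread among these libraries.

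When leaves of a warm-climate plant are chilled, many stress, wall and defence genes are known to respond. Pectin-modifying enzymes set the stiffness of the cell wall, heat stress factors switch on chaperones, and nucleotide-binding receptors and pathogenesis-related proteins belong to plant immunity. The transcripts here were assembled from reads without a genome, and each gene is an assembled group named only by its best protein hit in another species. The prefix TRINITY_ is left off each identifier. Several groups of 1 gene, or the allelic forms of 2 cultivars, can share reads.

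The libraries held 14769978 to 21911157 estimated counts. Leaf transcripts named as rubisco small subunits or chlorophyll a-b binding proteins summed to 112307 to 142724 TPM in the 6 control libraries and to 8033 to 20492 TPM in the 12 cold ones. Guard cell names summed to 69.8 to 169 TPM and root names to 67.2 to 212 TPM, and 0 groups carried a floral organ name of the list. Replicate 2 of Fantasy love at 6 °C stood apart, with the fewest groups detected, 59670, and the least similar counts within its group.

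Movement in opposite directions was rare among the named genes. Of the 13127 named genes at 5 TPM or more, 1575 had a ratio of at least 3 in both cultivars and 1320 a ratio of at most 0.333 in both, against the 29 members, a share of 0.221%. The same rule found 87 further groups without a Swiss-Prot description among 14957 at that level. The members were weakly expressed and short: the highest of their 4 group means had a median of 11.1 TPM against 24.4 TPM over the 13127 genes, and their median length was 868 bases against 1701. In 22 of the 29 the 3 libraries at 4 °C did not overlap the 3 at 25 °C in either cultivar, where 4.4% of the 13127 genes were separated in opposite directions. The rule fixes that pattern in large part, so nothing is read from it. Nearest to the threshold inside it were UGT82A1, with ratios of 7.52 in Oregon and 0.332 in Fantasy love, and DRT100, with 3.05 and 0.11. Nearest outside were the heparanase-like At5g07830, with 0.335 and 3.23, and the transcription factor CPC, with 0.337 and 3.78.

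**Figure D1:**
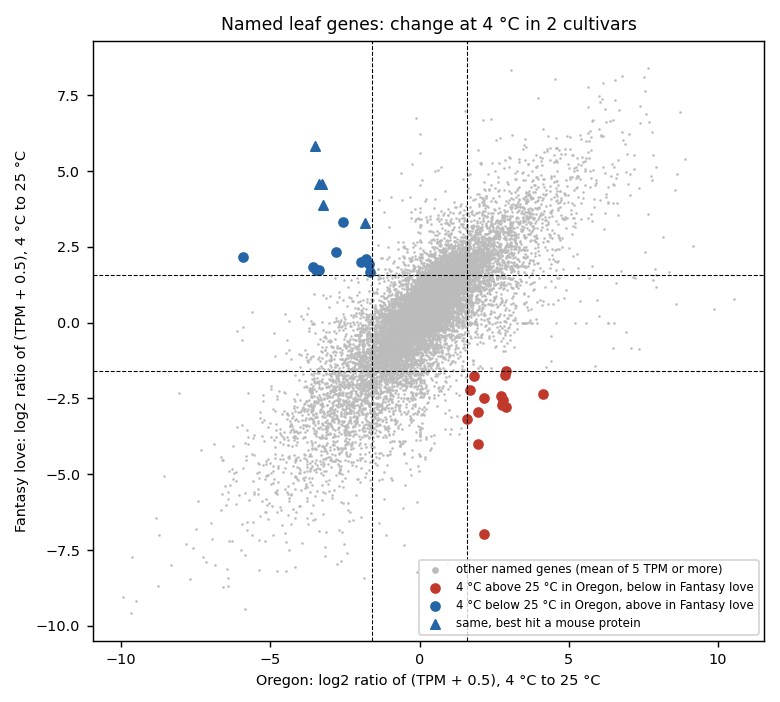
Log2 ratio of 4 °C to 25 °C in Oregon (x axis) and Fantasy love (y axis), from group means of TPM plus 0.5; grey points are the other named genes, coloured points the members and dashed lines the ratio limits of 3 and 0.333. The grey points lie along the rising diagonal, and the 14 Oregon-high and 15 Fantasy love-high genes sit in the lower right and upper left corners.

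**Figure D2:**
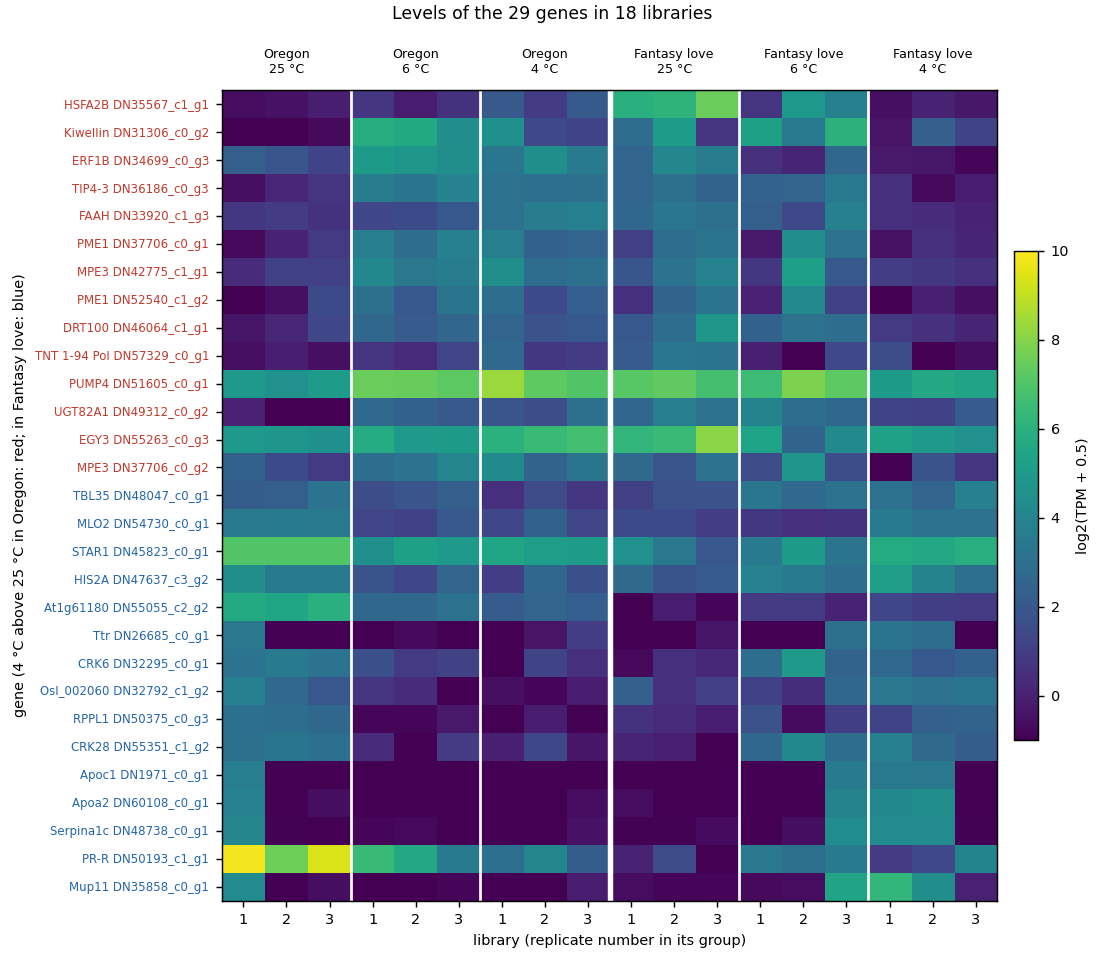
Log2(TPM + 0.5) of each member (rows) in each of the 18 libraries (columns, replicates 1 to 3 within a group). PR-R in Oregon at 25 °C holds the brightest cells, and the 5 rows with mouse hits are bright in the same 4 libraries.

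Among the genes with plant hits, the widest opposite swing belonged to HSFA2B (DN35567_c1_g1), whose best hit is a rice class A-2 heat stress transcription factor, a regulator that switches on heat shock genes. In Fantasy love it stood at 62.1, 70.0 and 181 TPM at 25 °C in replicates 1 to 3, the order used throughout, and at 0.18, 0.53 and 0.32 TPM at 4 °C. In Oregon it stood at 0.15, 0.23 and 0.45 TPM at 25 °C and at 3.65, 1.43 and 3.78 TPM at 4 °C. The gene was therefore most abundant in the Fantasy love controls, and the higher Oregon level at 4 °C, with a ratio of 4.45, was itself under 4 TPM. The Fantasy love ratio was 0.0081. A second group had the same protein hit, and the 2 groups summed gave ratios of 1.25 in Oregon and 0.301 in Fantasy love. Small heat shock proteins were also higher in the Fantasy love controls: their 33 named groups summed to 4451, 3003 and 15147 TPM there and to 543, 507 and 462 TPM in Oregon at 25 °C. At 4 °C these sums were 13194 to 15708 TPM in Fantasy love, where DN35567_c1_g1 but not the summed HSFA2B hit was near 0. In Oregon they were 18524 to 26228 TPM. Among the 6 control libraries, the highest of these sums and the highest level of DN35567_c1_g1 were both in replicate 3 of Fantasy love. The part of that library's state in the result was not tested. In bulk leaf RNA, fewer cells of a type and less RNA per cell cannot be told apart.

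EGY3 (DN55263_c0_g3), a chloroplast protein of a metallopeptidase family, was high in the same control library. Fantasy love controls held 75.9, 87.4 and 275 TPM, and the 4 °C leaves 39.3, 29.7 and 23.4 TPM. Oregon went the other way, from 29.1, 27.2 and 22.7 TPM to 64.4, 86.1 and 105 TPM. All 3 Fantasy love controls lay above all 3 of its cold leaves, but the gene no longer met the rule without replicate 3 of the Fantasy love controls, of the Oregon controls or of Oregon at 4 °C.

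ERF1B (DN34699_c0_g3), an ethylene response factor that in Arabidopsis joins ethylene and jasmonate signals, was nearly lost in Fantasy love at 4 °C. There it had 0.34, 0.31 and 0.08 TPM against 5.54, 16.8 and 11.7 TPM in the controls. In Oregon it had 9.34, 21.5 and 11.1 TPM at 4 °C against 4.5, 3.26 and 1.82 TPM at 25 °C, and at 6 °C it was higher still, with 31.1, 27.5 and 21.1 TPM. Neighbouring assembled groups with the same protein hit did other things. DN34699_c0_g2 had ratios of 9.61 in Oregon and 8.89 in Fantasy love, and DN34699_c0_g1 had ratios of 0.081 and 0.185. The 3 groups summed gave 1.92 and 0.53.

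The members included 4 groups named as pectinesterases, enzymes that strip methyl groups from wall pectin, and all 4 were Oregon-high. DN42775_c1_g1, with a hit to bean MPE3, had 0.75, 1.75 and 1.62 TPM in Oregon at 25 °C and 20.98, 6.97 and 7.86 TPM at 4 °C. In Fantasy love it had 3.39, 8.55 and 14.1 TPM at 25 °C and 1.51, 1.2 and 0.92 TPM at 4 °C. The groups of libraries did not overlap in either cultivar, and replicate 1 was the highest of the Oregon cold leaves.

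The other pectinesterase groups followed the same libraries. PME1 (DN37706_c0_g1) had means of 0.677 ± 0.631 TPM at 25 °C and 7.75 ± 4.49 TPM at 4 °C in Oregon, and of 5.78 ± 3.73 and 0.567 ± 0.341 TPM in Fantasy love (SD, n = 3 in each group). PME1 (DN52540_c1_g2) had 0.82 ± 1.27 and 4.69 ± 2.58 TPM in Oregon, and 5.11 ± 4.06 and 0.227 ± 0.247 TPM in Fantasy love. MPE3 (DN37706_c0_g2), a fragment of 221 bases in the same Trinity component as DN37706_c0_g1, had 2.78 ± 1.78 and 11.1 ± 7 TPM in Oregon, and 5.99 ± 2.49 and 1.42 ± 1.55 TPM in Fantasy love. The 4 groups are therefore not 4 independent observations, since fragments of 1 transcript, and reads shared between them, can move together. At 6 °C, replicate 2 of Fantasy love held 36.1, 20.6, 26.3 and 17.4 TPM of DN42775_c1_g1, DN37706_c0_g1, DN37706_c0_g2 and DN52540_c1_g2, the highest value of each gene in any library. Its companions at 6 °C held 0.36 to 8.15 TPM of the same genes.

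**Figure D3:**
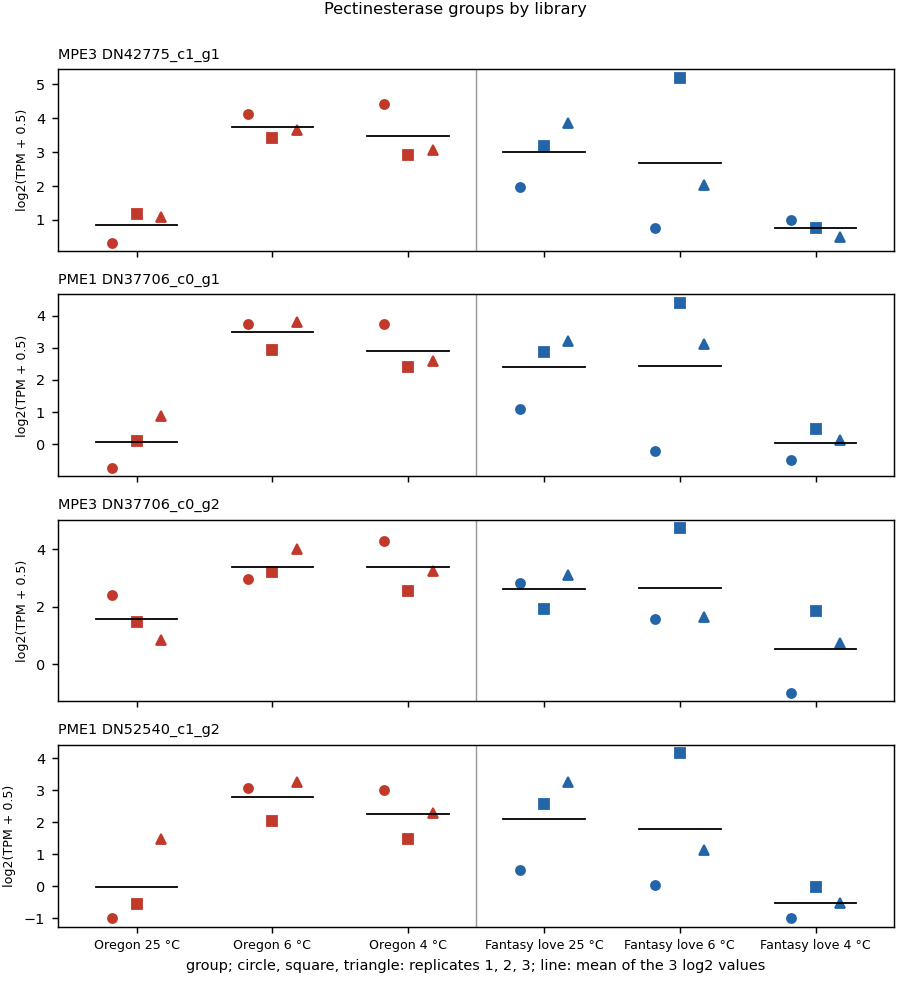
Log2(TPM + 0.5) of the 4 pectinesterase groups in the 6 groups of leaves, 1 symbol per library and a line at the mean of the 3 log2 values. In each panel Oregon is low at 25 °C, Fantasy love is low at 4 °C, and the square of Fantasy love at 6 °C (replicate 2) is the highest point.

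PUMP4 (DN51605_c0_g1), a carrier of the inner mitochondrial membrane named as an uncoupling protein, was the most abundant Oregon-high gene. Oregon held 28.4, 22.9 and 31.9 TPM at 25 °C and 329, 156 and 130 TPM at 4 °C. Fantasy love held 143, 158 and 108 TPM at 25 °C and 31.4, 49.5 and 42.96 TPM at 4 °C. At 6 °C the cultivars overlapped, with 150 to 177 TPM in Oregon and 92.9 to 228 TPM in Fantasy love.

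The water channel TIP4-3 (DN36186_c0_g3), a rice aquaporin of the vacuole membrane by its best hit, had libraries apart in both cultivars. The lower group of each cultivar lay near the floor. Oregon had 0.19, 0.63 and 1.11 TPM at 25 °C and 8.45, 7.58 and 7.79 TPM at 4 °C, and Fantasy love had 5.56, 7.92 and 5.1 TPM and then 0.89, 0.11 and 0.41 TPM. FAAH (DN33920_c1_g3), which in Arabidopsis hydrolyses N-acylethanolamine lipids, was as clearly split. It had 1.24, 1.36 and 1.05 TPM in Oregon at 25 °C and 8.4, 11.8 and 13.0 TPM at 4 °C, against 6.08, 9.61 and 7.83 TPM and then 0.93, 0.8 and 0.57 TPM in Fantasy love. A second group had the FAAH hit, and the 2 groups summed gave ratios of 1.13 in Oregon and 0.284 in Fantasy love. TIP4-3 and the FAAH member met the rule whichever of the 12 libraries at 25 °C and 4 °C was left out. In all, 9 members did so: HSFA2B, TIP4-3, FAAH, the pectinesterases DN42775_c1_g1 and DN37706_c0_g1, STAR1, CRK6, CRK28 and RPPL1.

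The remaining Oregon-high genes were weaker or more scattered. Kiwellin (DN31306_c0_g2), a cysteine-rich secreted protein first known from kiwifruit, was at 0, 0 and 0.1 TPM in Oregon at 25 °C, at 56.5, 50.2 and 20.7 TPM at 6 °C, and at 22.7, 2.19 and 1.8 TPM at 4 °C. Fantasy love had 7.15, 31.9 and 1.11 TPM at 25 °C, 37.8, 10.5 and 66.5 TPM at 6 °C, and 0.25, 4.61 and 1.89 TPM at 4 °C, so its libraries at 25 °C and 4 °C overlapped. Both cultivars thus held their highest mean of this gene at 6 °C.

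DRT100 (DN46064_c1_g1), a leucine-rich repeat protein, went from 0.983 ± 0.917 to 4.02 ± 1.27 TPM in Oregon, and from 12.8 ± 13 to 0.97 ± 0.37 TPM in Fantasy love (SD, n = 3), where control replicate 3 alone had 27.7 TPM. The glycosyltransferase UGT82A1 (DN49312_c0_g2) had 0.51, 0 and 0 TPM and then 3.25, 2.52 and 7.85 TPM in Oregon, and 5.68, 12.5 and 8.1 TPM and then 1.91, 1.77 and 4.05 TPM in Fantasy love. A retrotransposon protein of the tobacco TNT type (DN57329_c0_g1) had 0.277 ± 0.159 and 2.97 ± 2.85 TPM in Oregon, resting on replicate 1 with 6.26 TPM, and 7.43 ± 2.9 and 0.913 ± 1.45 TPM in Fantasy love. It was 1 of 322 groups with that same protein hit, which summed gave ratios of 1.04 and 0.62.

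Among the Fantasy love-high genes, 3 carried names of disease resistance, of 188 such genes at 5 TPM or more. At1g61180 (DN55055_c2_g2), a nucleotide-binding immune receptor, had 51.9, 45.2 and 62.9 TPM in Oregon at 25 °C and 4.04, 5.59 and 4.39 TPM at 4 °C. In Fantasy love it had 0, 0.4 and 0.06 TPM at 25 °C and 2.07, 1.57 and 1.36 TPM at 4 °C. This group was thus an Oregon transcript mainly, and even after the cold Fantasy love leaves held less of it than Oregon leaves. Its protein hit was shared by 2 groups, whose sum had ratios of 0.286 in Oregon and 0.421 in Fantasy love. The sum was therefore lower at 4 °C in both cultivars.

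PR-R (DN50193_c1_g1), a thaumatin-like protein of the pathogenesis-related class 5 from tobacco, was the most abundant member. Oregon controls held 901, 191 and 659 TPM, and the 4 °C leaves 7.66, 15.9 and 4.19 TPM. Fantasy love held 0.58, 2.44 and 0 TPM at 25 °C and 1.46, 2.16 and 15.1 TPM at 4 °C, overlapping. The Fantasy love ratio of 4.48 rested on replicate 3, without which the gene was no member.

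RPPL1 (DN50375_c0_g3), named after the downy mildew receptor family RPP13 of Arabidopsis, had 7.61, 7.41 and 5.91 TPM in Oregon at 25 °C and 0, 0.41 and 0 TPM at 4 °C. Fantasy love had 1.01, 0.73 and 0.46 TPM and then 1.81, 4.75 and 5.1 TPM. Its protein hit was shared by 37 groups, whose sum had ratios of 0.817 in Oregon and 0.806 in Fantasy love.

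A pair of cysteine-rich receptor-like kinases, membrane receptors with roles in defence, was also Fantasy love-high. CRK28 (DN55351_c1_g2) had 7.79, 9.18 and 7.54 TPM in Oregon at 25 °C and 0.47, 2.15 and 0.29 TPM at 4 °C, and in Fantasy love 0.59, 0.47 and 0 TPM and then 13.3, 6.55 and 4.23 TPM. CRK6 (DN32295_c0_g1) had 8.52, 11.5 and 8.58 TPM and then 0, 1.91 and 0.9 TPM in Oregon, and 0.09, 0.89 and 0.71 TPM and then 6.28, 3.54 and 4.87 TPM in Fantasy love. The groups of libraries were apart in both cultivars for both kinases. A longer group of the same component as CRK28, named CRK10 (DN55351_c1_g1), had ratios of 0.521 and 17.7.

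Histone H2A, a core protein of chromatin, gave 2 members. HIS2A (DN47637_c3_g2) had 21.4, 11.5 and 10.7 TPM in Oregon at 25 °C and 1.48, 5.98 and 2.73 TPM at 4 °C, and in Fantasy love 6.38, 3.1 and 3.94 TPM and then 35.8, 14.5 and 7.57 TPM. The group OsI_002060 (DN32792_c1_g2), after a rice H2A.5, had 7.51 ± 4.82 and 0.22 ± 0.173 TPM in Oregon and 2.41 ± 2 and 9.18 ± 0.795 TPM in Fantasy love (SD, n = 3). A second group with the HIS2A hit (DN47637_c3_g4) had ratios of 5.56 in Oregon and 6.75 in Fantasy love, so the opposite movement did not extend to it.

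STAR1, MLO2 and TBL35 completed the Fantasy love-high genes with plant hits. STAR1 (DN45823_c0_g1), in rice the ATP-binding part of a transporter needed for aluminium tolerance, had 130, 128 and 127 TPM in Oregon at 25 °C and 43.4, 34.7 and 32.4 TPM at 4 °C. In Fantasy love it had 23.1, 10.2 and 3.49 TPM and then 54.7, 50.1 and 58.8 TPM. The cultivars, far apart at 25 °C, were nearer at 4 °C, with Fantasy love above Oregon in every library. MLO2 (DN54730_c0_g1), a membrane protein that in Arabidopsis governs powdery mildew susceptibility, had 10.8 ± 0.378 and 2.98 ± 1.67 TPM in Oregon and 2.02 ± 0.471 and 9.12 ± 1.67 TPM in Fantasy love (SD, n = 3). TBL35 (DN48047_c0_g1), of a family that acetylates wall polymers, had 5.8 ± 2.54 and 1.49 ± 0.822 TPM in Oregon and 2.5 ± 0.765 and 8.94 ± 3.96 TPM in Fantasy love. It lay close to the limits and left the set in 5 of the 12 cases with a library omitted.

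The 5 remaining Fantasy love-high genes had a mouse protein as their best hit, in libraries labelled as plant leaf. They were Mup11 (DN35858_c0_g1), Serpina1c (DN48738_c0_g1), Apoa2 (DN60108_c0_g1), Apoc1 (DN1971_c0_g1) and Ttr (DN26685_c0_g1). In mice these encode a major urinary protein, a protease inhibitor of blood plasma, a pair of lipoprotein components and transthyretin, all secreted by the liver. Each was at 6.94 to 78.2 TPM in the same 4 libraries: Oregon at 25 °C replicate 1, Fantasy love at 6 °C replicate 3 and Fantasy love at 4 °C replicates 1 and 2. In the other 14 libraries none of the 5 passed 1.51 TPM. Within Oregon at 25 °C, for example, Mup11 had 19.6, 0 and 0.17 TPM, and within Fantasy love at 4 °C it had 78.2, 21.2 and 0.51 TPM.

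Single libraries, not whole groups, thus carried these 5 genes, and all 5 failed the rule without replicate 1 of the Oregon controls. A list of other mouse liver and plasma names, written after these values were seen, found 20 further groups, among them albumin, fibrinogen and apolipoprotein A-I. Their sum was 63.6 to 75.8 TPM in the same 4 libraries, 99.1 TPM in replicate 3 of Oregon at 4 °C, and 0.02 to 5.36 TPM in the other 13. In that Oregon library the 5 members summed to 2.27 TPM. There, 229 groups outside the members with a mouse best hit and no other annotation summed to 1514 TPM. Neighbours of Serpina1c and Mup11 in their components, with alpha-1-antitrypsin and major urinary protein hits, had Oregon means at 4 °C of 3.29 to 4.66 TPM. Summed over the component, the Oregon ratios of Serpina1c and Mup11 were 1.23 and 0.663. The origin of these transcripts was not tested. Results for the members are given below with and without them.

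**Figure D4:**
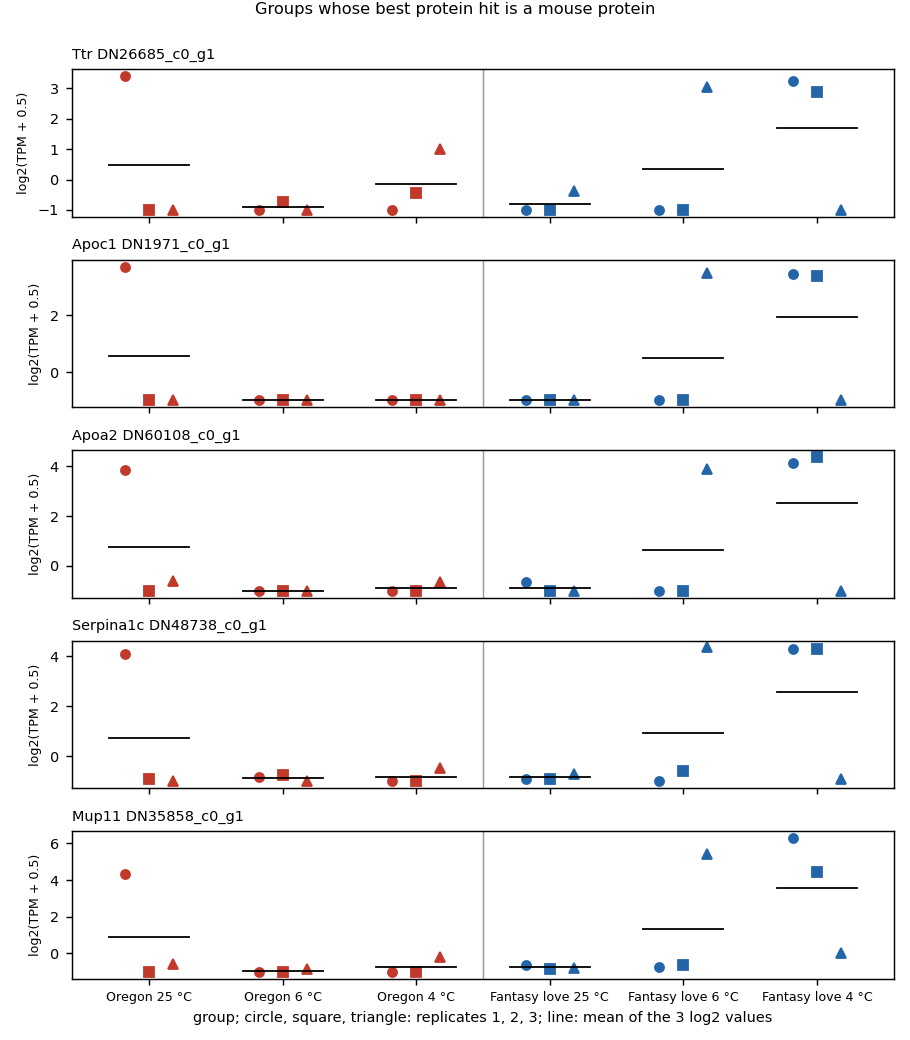
Log2(TPM + 0.5) of the 5 groups whose best hit is a mouse protein, 1 symbol per library and a line at the mean of the 3 log2 values. The same 4 libraries are high in every panel, and the other symbols lie near the floor of the scale.

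The 6 libraries at 6 °C were not used to choose the members, so the difference between cultivars at that step was tested. The estimated counts were fitted with edgeR's quasi-likelihood test, and a gene was called with a Benjamini-Hochberg adjusted p below 0.05 over all genes and an absolute log2 fold change of at least 1. Of 51670 genes tested, 23.4% were called, 12.1% as higher in Fantasy love and 11.3% as higher in Oregon. Among named genes at 5 TPM or more the shares were 23.5%, 16.8% and 6.76%. All 29 members entered the fit, and 12 were called, or 10 of the 24 with plant hits.

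The Oregon-high genes were mostly not apart at 6 °C. Of these 14, 3 were called, 2 higher in Fantasy love and 1 higher in Oregon, a share near the background. Their median log2 difference, Fantasy love minus Oregon, was 0.32, beside 0.30 over the named genes at that level. HSFA2B was higher in Fantasy love by 4.21 ± 0.83 on the log2 scale (± SE, edgeR adjusted p = 0.00141), with 1.1, 28.6 and 13.4 TPM against 1.17, 0.43 and 1.02 TPM, so 1 library overlapped. FAAH was higher in Fantasy love by 1.56 ± 0.43 (edgeR adjusted p = 0.013), a call lost without Oregon replicates 1 or 2 or Fantasy love replicate 3. ERF1B was lower in Fantasy love, at -3.35 ± 0.66 (edgeR adjusted p = 0.00147), with 0.9, 0.59 and 5.86 TPM against 21.1 to 31.1 TPM in Oregon, and the libraries did not overlap.

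The 4 pectinesterases were not called at 6 °C, and their values rested on 1 library. With all libraries their log2 differences were 0.45 (DN42775_c1_g1), -0.09 (DN37706_c0_g1), 0.31 (DN37706_c0_g2) and 1.66 (DN52540_c1_g2), with SEs of 0.85 to 1.2. Without replicate 2 of Fantasy love at 6 °C they were -2.42, -2.45, -2.09 and -2.38, and DN42775_c1_g1 was then called as higher in Oregon (edgeR adjusted p = 0.0112).

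Of the 10 Fantasy love-high genes with plant hits, 7 were called at 6 °C, 5 higher in Fantasy love and 2 higher in Oregon, and their median log2 difference was 1.39. Over the named genes at 5 TPM or more the shares were 23.5%, 16.8% and 6.76%, and the median was 0.30. With replicate number as a block in the fit, 3 of the 10 were called higher in Fantasy love and 1 higher in Oregon. CRK28 was higher in Fantasy love by 3.96 ± 0.91 (edgeR adjusted p = 0.00431), with 6.11, 17.3 and 7.42 TPM against 0.79, 0 and 1.37 TPM. CRK6 was higher by 3.44 ± 0.85 (edgeR adjusted p = 0.00648), with 7.17, 30.4 and 5.19 TPM against 2.76, 1.3 and 1.77 TPM. Neither kinase overlapped between the cultivars, and the call of CRK6 was lost without Fantasy love replicate 2, where its log2 difference was 1.76.

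TBL35 at 1.26 ± 0.33, HIS2A at 1.52 ± 0.53 and RPPL1 at 3.09 ± 1.02 were also higher in Fantasy love (edgeR adjusted p = 0.0095, 0.0397 and 0.0323). RPPL1 lay near the floor and overlapped, with 2.85, 0.12 and 1.57 TPM in Fantasy love against 0.07, 0.06 and 0.35 TPM in Oregon. The calls of HIS2A and RPPL1 were lost in 3 and 4 of the 6 fits that left out a library at 6 °C, and that of TBL35 in 1, without Oregon replicate 1. At1g61180 stayed higher in Oregon, at -2.63 ± 0.53 (edgeR adjusted p = 0.00174), with 6.01, 6.11 and 8.27 TPM against 1.34, 1.44 and 0.56 TPM. PR-R was likewise higher in Oregon, at -2.18 ± 0.76 (edgeR adjusted p = 0.0401), with 83.6, 48.7 and 10.96 TPM against 10.2, 7.74 and 10.9 TPM, but its call held in only 1 of those 6 fits. The calls of HSFA2B, ERF1B, CRK28 and At1g61180 held in all 6. With counts summed over each Trinity component, the assembler's cluster of overlapping reads, 7 of the 12 calls were kept and 5 were lost. ERF1B was then at -1.26 (edgeR adjusted p = 0.0733) and CRK28 at 1.26 (edgeR adjusted p = 0.0697), and the other lost calls were HIS2A at 0.14, PR-R at -0.99 and RPPL1 at -0.91. UGT82A1 was called in these sums, at -1.68 (edgeR adjusted p = 0.00158), against 0.95 for the group itself, which held 15.3% of its component's TPM. Some of these sums mainly hold neighbouring groups. FAAH and TBL35 kept their calls, at 3.07 and 1.69, with 3.82% and 7.18% of their component's TPM. HIS2A and RPPL1 lost theirs with 4.07% and 8.51%. Without Fantasy love replicate 2, STAR1 was called as higher in Oregon, at -2.04, and OsI_002060 as higher in Fantasy love. The 3 libraries of each cultivar at 6 °C did not overlap for 9 of the 29 members, or 8 of the 24 with plant hits. Of the named genes at 5 TPM or more, 35.3% were so separated.

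Of the 5 genes with mouse hits, Mup11 and Serpina1c were called as higher in Fantasy love, at 8.81 ± 2.94 and 7.54 ± 2.71 (edgeR adjusted p = 0.0331 and 0.0456). Both calls rested on replicate 3 of Fantasy love, with 41.8 and 19.96 TPM against 0.16 TPM or less in the other 5 libraries at 6 °C, and without it their log2 differences were 1.96 and 1.17 and were not called. Leaving out any 1 of the Oregon libraries at 6 °C also ended both calls.

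**Figure D5:**
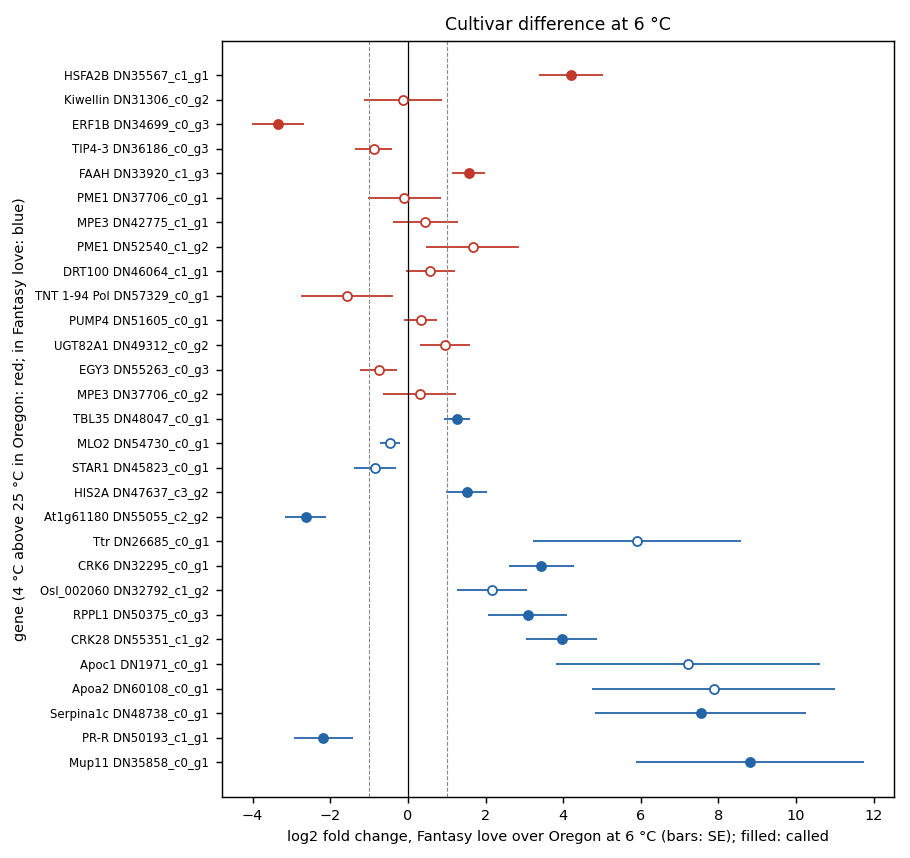
Log2 fold change of Fantasy love over Oregon at 6 °C for each member with its SE (bars); filled points were called, red marks Oregon-high and blue Fantasy love-high genes, and dashed lines mark a log2 fold change of 1. ERF1B, At1g61180 and PR-R lie left of 0 among the filled points, and the genes with mouse hits have the widest bars.

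The families of the members are described beside the 13127 named genes, of which 12.0% were at least 3-fold higher in both cultivars, 10.1% at most 0.333 in both, and 23.5% called at 6 °C. Family lists were written from words in the protein names after the members were known, and count genes at 5 TPM or more. Of 20 pectinesterases, 10 had a ratio of at most 0.333 in both cultivars and 1 a ratio of at least 3 in both, beside the 4 members. In Fantasy love 17 of the 20 were at or below 0.333, the 4 members among them by the rule. Of the 13127 named genes, 2038 were so in Fantasy love. Of 22 heat stress factors, 11 were at least 3-fold higher in both cultivars, and HSFA2B was the only member. Of 23 cysteine-rich receptor-like kinases, 7 were at least 3-fold higher in both and 2 at most 0.333 in both. Of 114 disease resistance proteins, 26 were at most 0.333 in both and 1 at least 3-fold higher in both. In the cultivar comparison at 6 °C, 23 of these 114 were called higher in Fantasy love and 12 higher in Oregon, while 8 and 5 of the 23 kinases, 2 and 7 of the 22 heat stress factors and 2 and 2 of the 20 pectinesterases were called. Of 47 ethylene-responsive factors 16 were at least 3-fold higher in both cultivars and 4 at most 0.333 in both, and of 13 histone H2A genes 4 and 1. The corresponding counts were 0 and 3 of 8 tonoplast aquaporins, 2 and 1 of 8 MLO-like proteins, and 2 and 2 of 12 thaumatin-type proteins.

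Summing neighbouring assembled groups left most members opposite in direction but took many of them inside the ratio limits. Of the 29, 8 were alone in their Trinity component and 21 shared it with other groups. After TPM were summed over the component, 22 of the 29 were still opposite in direction, 14 of them among the 21, and 13 still met both ratio limits, 5 of them among the 21. The 8 alone in their component kept their values. DN37706_c0_g1 and DN37706_c0_g2, among the 5, are the only groups of their shared component, so their sum was bound to meet the limits. The rest of the 5, kiwellin, EGY3 and MLO2, held 97.8%, 95.2% and 82.7% of their component's TPM. In sums over all groups with the identical protein hit, 12 members were the only group of their hit and so kept their values. Of the other 17, 8 met the limits. These 8 include the pectinesterases, whose same-hit sums add members only to members and were therefore bound to meet the limits. The rest of the 8 were kiwellin, UGT82A1, STAR1 and PR-R. For CRK6 the same-hit sum had ratios of 4.15 in Oregon and 8.03 in Fantasy love, and so was higher at 4 °C in both. For HSFA2B the component sum gave ratios of 2.29 and 0.365. A neighbour there, the class C heat stress factor HSFC1A (DN35567_c1_g8), had means of 0.14 TPM at 25 °C and 20.6 TPM at 4 °C in Fantasy love and of 1.3 and 4.94 TPM in Oregon. Components can also join different genes. That of FAAH had summed ratios of 0.084 in Oregon and 0.067 in Fantasy love. It holds a group named as the uncharacterised protein At5g39865 (DN33920_c1_g1), with means of 249 and 396 TPM in the controls of Oregon and Fantasy love. Whether such groups are alleles, fragments or separate genes was not tested.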

How the data were processed

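The members, lists and tests were chosen with earlier results of these data known. Leaf RNA of 18 libraries was extracted with Trizol. Reads were trimmed with cutadapt 1.9, per the submitters' processing notes, and the identifiers carry the name of the Trinity assembler. Quantification tool, filters and assembler version: not given in the sources used here. The authors deposited estimated counts, of which 4.21% have decimals, and TPM values that sum to 981488 to 994410 per library. The group lengths, in bases, are as deposited. No sequence of the assembled groups was used here.

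Members were found from TPM with a pseudocount of 0.5. Counts were rounded, filtered with filterByExpr (minimum count 10, minimum total 15), scaled by TMM and fitted as 6 group means over all 18 libraries with edgeR 4.0.16 in R 4.3.3. Each SE was obtained from the F statistic, as the size of the log2 fold change over its root. The fit was tested on simulated data. Alternatives used DESeq2 1.42.0, limma 3.58.1 with a prior count of 2, other filters, a replicate block, component sums and leaving out each library. The rule for genes given in full took, per direction, the 8 largest swings among separated plant hits, up to 4 calls at 6 °C per sign by adjusted p, the 4 highest levels and the members nearest the limits; the other members were named because there are only 29. Tables used Python 3.11.15, pandas 2.3.3 and numpy 2.4.6, figures matplotlib 3.10.9.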

Additional observations from a re-analysis of the deposited data

Results flagged for a closer look

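In 22 members every library at 4 °C lay on one side of every library at 25 °C in Oregon and on the other side in Fantasy love. They were chosen for opposite movement, so this difference between cultivars was not tested and is no evidence of its own. The values are log2 ratios of 4 °C to 25 °C in Oregon minus those in Fantasy love. Among the transcription factors HSFA2B (DN35567_c1_g1) had 9.11 and ERF1B (DN34699_c0_g3) 5.97. The pectinesterases had 5.37 (DN37706_c0_g1), 5.15 (DN42775_c1_g1), 4.92 (DN52540_c1_g2) and 3.58 (DN37706_c0_g2). TIP4-3 had 5.67, FAAH 5.47, DRT100 4.79, the TNT-type retrotransposon protein 4.65, PUMP4 4.57, UGT82A1 4.5 and EGY3 3.9. In the reverse direction CRK28 had -5.88, RPPL1 -5.38, OsI_002060 -5.21, CRK6 -5.15, At1g61180 -5.11, HIS2A -3.94, STAR1 -3.89, MLO2 -3.63 and TBL35 -3.32.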

How the results depend on the processing

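The number of members, 29, was 59 with a pseudocount of 0.1, 115 with a ratio of 2, 14 with a ratio of 4, 61 with a minimum mean of 1 TPM and 17 with one of 10 TPM, and 22 to 48 with 1 library left out, 48 without Fantasy love at 4 °C replicate 3. With TMM-scaled CPM in place of TPM 24 genes met the rule, 12 of them members, while all 29 members kept their directions. CPM are not scaled to transcript length, and 10 of the 29 were under 5 CPM in every group of the rule. By the ratios alone, 18 of the 29 were past 3-fold in both cultivars.

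The 12 members called at 6 °C were 7 with the replicate block, 6 with the 6 libraries at 6 °C alone and 5 to 13 without 1 of these libraries. RPPL1, Mup11 and Serpina1c, called in the main fit, were filtered out and not tested in the fit of those 6 libraries alone. All 12080 calls became 5062 with those 6 libraries alone and 6176 with counts summed over components. The main fit did not pair libraries by replicate number. Deviations from the group mean had correlations of -0.274 to -0.033 between same-numbered libraries of the 2 groups at 6 °C. Over all 45 same-numbered pairs between groups they were -0.348 to 0.216, and pairing was not tested. Signs turned for DN37706_c0_g2 (-0.31), DN42775_c1_g1 (-1.24) and DN52540_c1_g2 (-0.74) under quantile normalisation, kiwellin (0.31) with the block, and RPPL1 (-0.91), DN37706_c0_g1 (0.0872) and UGT82A1 (-1.68) with component sums. With 1 library at 6 °C left out, the log2 difference ranged from -0.35 to 0.74 for PUMP4, -2.09 to 0.82 for DN37706_c0_g2, -2.42 to 1.02 for DN42775_c1_g1, -2.38 to 2.25 for DN52540_c1_g2, -2.45 to 0.49 for DN37706_c0_g1, -0.90 to 0.26 for kiwellin, 0.0 to 8.46 for Apoa2, 0.0 to 7.79 for Apoc1 and -1.90 to 7.79 for Ttr. The cause was not tested. Precision is limited by low counts in the members under 10 TPM and by 3 libraries a group.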
